A study of Homo sapiens with 6 samples.

Results

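Replication-dependent histone genes encode the core and linker histones that package newly made DNA. They were taken from the deposited gene table by name and class, as protein-coding genes whose symbol begins with HIST followed by a cluster number from 1 to 4 and H, which gave 71 of 58735 genes. By family these were 6 H1 (linker histone), 17 H2A, 18 H2B, 15 H3 and 15 H4 genes. The libraries came from MG63, an established human osteosarcoma cell line, transfected with small interfering RNA against FUBP1 (siFUBP1, 3 libraries) or with the negative control (siMock, 3 libraries), and RNA was taken 48 h after transfection. All cells were of this 1 line, neither group carried a drug treatment in its labels, and which FUBP1 oligonucleotide was used was not given in the sources used here. The question was which histone messages differed after FUBP1, a single-strand nucleic acid binding protein, was depleted.

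Histone messages of this class are made in S phase, when DNA is copied, and fall away when copying stops. Unlike other messenger RNAs they normally end in a short stem-loop in place of a poly(A) tail. The stem-loop is bound by SLBP, and the message is cut just after it by a machinery that includes the U7 small nuclear ribonucleoprotein. Some of these genes can also make longer, polyadenylated transcripts that read past the stem-loop. Because the libraries were purified with poly-T beads, the counts here come from the histone RNA that those beads kept. Fewer histone transcripts and a smaller share of transcripts kept by the beads cannot be told apart in these counts.

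Each library held between 16309900 and 17484313 counts. FUBP1 itself fell from 255.5 ± 18.5 CPM (counts scaled to library size with TMM factors; SD, n = 3) to 46.9 ± 5.33 CPM (SD, n = 3), with no overlap (adjusted p = 1.90e-17 from edgeR). The cell line label was set against 10 osteoblast-lineage markers: 2 could be tested, COL1A2 and IBSP were at 0 in every library, and SPARC had 12 counts over all 6 libraries. The siMock counts of COL1A1 lay between 1692 and 2000 and its siFUBP1 counts between 769 and 792, and it was called lower (log2 fold change -1.31, adjusted p = 1.83e-13 from edgeR), while those of RUNX2 lay between 6 and 8 and between 39 and 97, and it was called higher (log2 fold change 3.15, adjusted p = 4.53e-08 from edgeR). Among the untested markers, BGLAP had 3, 4 and 2 counts against 10, 8 and 13, and SPP1 had 1, 2 and 1 against 22, 7 and 20. The summed level of the 10 markers ranged from 109.1 to 118.6 CPM in siMock and from 49.7 to 52.7 CPM in siFUBP1, and their part in the histone result was not tested. Of the markers of other cell types, EPCAM had 59 to 83 counts in each library. It was not stated whether the libraries of a group came from separate cultures, so the p-values measure the spread between these libraries, which may be technical.

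The stem-loop was present in an annotated GENCODE 29 transcript of 32 of the 71 genes. The 26-base stretches below carry it in genes whose counts are described further on, with the 16 bases of the stem-loop in capitals and 5 bases on each side. They are shown because they are the feature that sets these messages apart from polyadenylated ones.
HIST2H2BE: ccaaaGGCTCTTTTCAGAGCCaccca
HIST1H3H: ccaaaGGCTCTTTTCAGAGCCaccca
HIST1H2BD: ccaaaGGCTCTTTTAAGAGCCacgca
HIST1H2AG: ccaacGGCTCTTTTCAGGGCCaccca
HIST1H4E: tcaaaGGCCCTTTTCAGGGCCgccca
HIST1H4I: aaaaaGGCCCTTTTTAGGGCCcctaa
The letters of HIST2H2BE and HIST1H3H were the most frequent form, found in 17 genes of the H2A, H2B and H3 families. The form in HIST1H2BD was found in 5 genes, the form in HIST1H4E in 5 genes, all H4, and the form in HIST1H4I in 3 genes, again all H4. HIST1H2AG was the single gene with its form. Of the 39 genes with no stem-loop in an annotated transcript, 35 had a model whose length is a multiple of 3, as for a model of the coding bases alone. Such a length does not by itself show a coding model. Of the H4 genes among them, the model of HIST1H4C has 435 bases and that of HIST1H4K 312 bases.

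Histone counts were low, and lower after FUBP1 knockdown. The 71 genes together held 2895, 2953 and 2680 counts in the siMock libraries and 1478, 1389 and 1384 counts in the siFUBP1 libraries. Every siFUBP1 library was below every siMock library. As summed CPM this was 174.3 ± 2.91 (SD, n = 3) in siMock and 82.3 ± 4.54 (SD, n = 3) in siFUBP1, a log2 ratio of -1.08. In bulk samples, fewer cells in S phase and less histone RNA per cell cannot be told apart.

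Single genes contributed very unequal numbers of counts. The median member had 22 counts over all 6 libraries, 43 members had under 50, and the highest, HIST1H2BK, had 2255. The 3 members with the most counts held 47.5% of the siMock histone counts and 37.7% of the siFUBP1 histone counts. The 9 members HIST1H2AA, HIST1H2AD, HIST1H2AK, HIST1H2AM, HIST1H2BA, HIST2H3PS2, HIST1H3D, HIST1H4F and HIST1H4L were at 0 in every library, where a count of 0 allows up to 3 counts, or 0.184 CPM in the shallowest library. HIST1H2AD, HIST1H2AK, HIST1H2AM, HIST2H3PS2 and HIST1H3D share 86.3% to 100% of their 50-base words with another gene, so that reads from them could have been left uncounted or counted elsewhere. This floor covers counting error only.

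After a filter on low counts, 25 of the 71 genes could be tested with edgeR's quasi-likelihood test among 16116 genes. A gene was called where its Benjamini-Hochberg adjusted p was under 0.05 and its log2 fold change was beyond 1 in either direction. Lower calls numbered 7 of the 25 tested members, or 28.0%, against 9.13% of all tested genes. No member was called higher, against 8.16% of all tested genes. With the adjusted p alone, 14 members were lower and 2 were higher, where 30.1% of all tested genes were lower and 30.1% were higher. In 13 members the siFUBP1 libraries lay below the siMock libraries with no overlap, against 31.7% of all tested genes, and in 2 they lay above, against 32.2%. The median log2 fold change of the 25 members was -0.73, and that of all tested genes was 0.00. These members had counts high enough to be tested and do not stand for all 71.

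**Figure D1:**
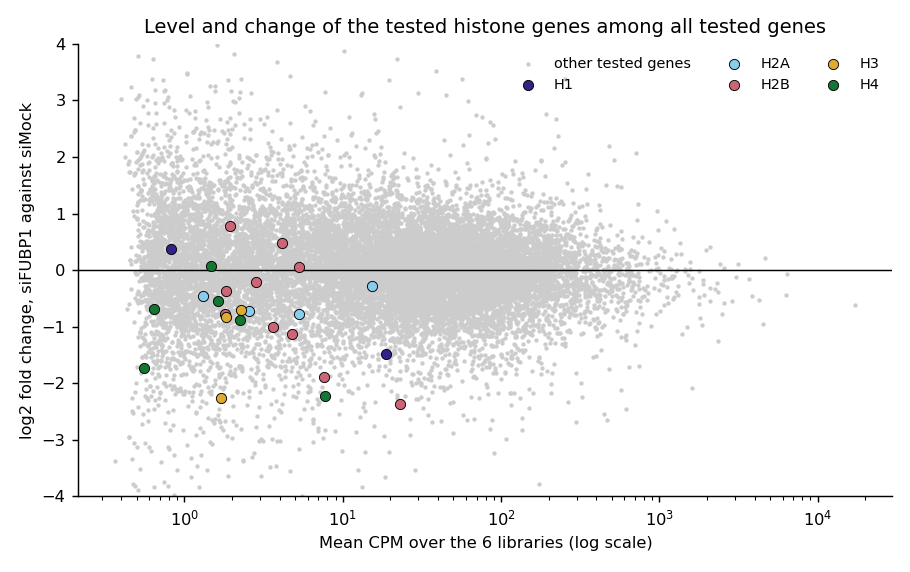
Mean CPM over the 6 libraries (horizontal, log scale) against the log2 fold change of siFUBP1 over siMock (vertical) for all tested genes, with the 25 tested histone genes coloured by family. Of the histone genes, 20 lie below 0 and 5 above, and 32 of the other genes lie beyond the limits of the vertical axis at 4 and -4.

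The 46 members that were not tested held 481 counts in the siMock libraries and 263 in the siFUBP1 libraries, and none had more than 74 counts in all. The highest of them were HIST1H3B with 20, 21 and 9 counts in siMock against 9, 8 and 7 in siFUBP1, and HIST2H3D with 26, 10 and 13 against 6, 4 and 9. HIST1H2AI and HIST1H3C were picked after their values were seen. HIST1H2AI had 15, 15 and 9 counts against 3, 0 and 2, and HIST1H3C had 11, 4 and 6 against 0, 0 and 1. Of the 50-base words of HIST1H2AI, 62.3% occur in another gene, HIST1H2AJ most often, which had 0, 1 and 4 counts against 6, 1 and 3. For HIST2H3D this share was 80.4%, so the counts of HIST1H2AI and HIST2H3D are uncertain. HIST1H2BF, with 8, 8 and 10 against 6, 7 and 16 counts, overlapped between the groups.

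**Figure D2:**
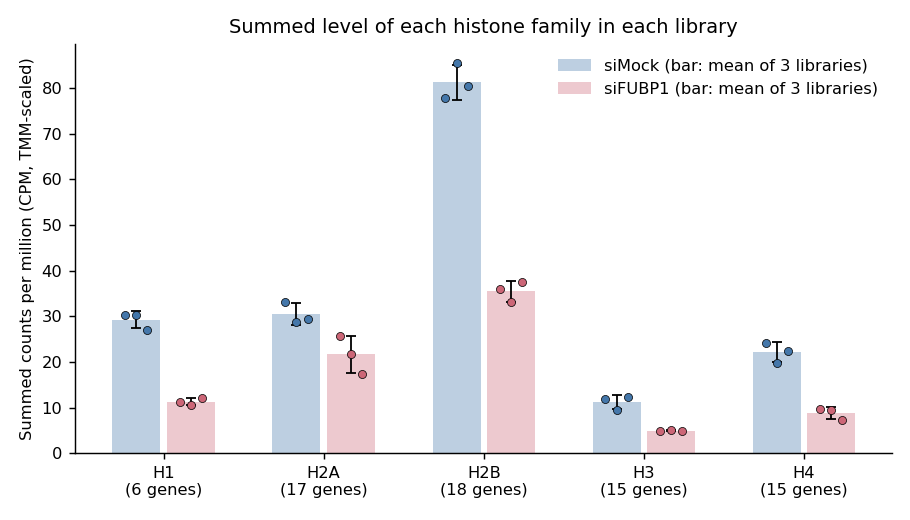
Summed CPM of each histone family in each of the 6 libraries; bars are means, error bars are SD and points are single libraries. In all families the 3 siFUBP1 libraries lie below the 3 siMock libraries, with the smallest gap in H2A.

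By family, the log2 ratio of the summed CPM over all members was nearest 0 for H2A, an order that did not hold once each family's top member was left out. H1 went from 29.2 ± 1.86 CPM to 11.3 ± 0.775 CPM (SD, n = 3 each), a log2 ratio of -1.37. H2A went from 30.4 ± 2.37 CPM to 21.7 ± 4.12 CPM (SD, n = 3 each), a log2 ratio of -0.49. The lowest siMock library for H2A was at 28.8 CPM and the highest siFUBP1 library at 25.7 CPM. H2B, the family with the most counts, went from 81.2 ± 3.82 CPM to 35.5 ± 2.30 CPM (SD, n = 3 each), a log2 ratio of -1.19. H3 went from 11.3 ± 1.54 CPM to 4.93 ± 0.132 CPM (SD, n = 3 each), a log2 ratio of -1.20. H4 went from 22.1 ± 2.20 CPM to 8.87 ± 1.39 CPM (SD, n = 3 each), a log2 ratio of -1.32. The sums are descriptions and carry no test.

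Levels per length put HIST1H2BK and HIST1H1C above the other members in both groups. In siMock the deposited FPKM was 99.3 ± 8.42 (SD, n = 3) for HIST1H2BK and 42.7 ± 2.91 (SD, n = 3) for HIST1H1C. HIST1H2AC at 9.94 ± 1.71 FPKM and HIST1H4I at 9.75 ± 0.277 FPKM followed (SD, n = 3 each) and differed by less than their spread, as did HIST1H2BD at 5.86 ± 0.981 FPKM and HIST2H2BE at 5.39 ± 0.422 FPKM (SD, n = 3 each). In siFUBP1, HIST1H2BK was at 19.2 ± 2.28 FPKM and HIST1H1C at 15.3 ± 0.7 FPKM (SD, n = 3 each). HIST1H2AC at 8.21 FPKM and HIST1H2BD at 6.11 FPKM came next, while HIST1H4I was at 2.10 FPKM and HIST2H2BE at 1.46 FPKM. These levels depend on the model's length, which for HIST1H2BK and HIST1H1C holds the coding bases alone.

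In H1, H2B and H4 a single gene set much of the family ratio. Without HIST1H1C, the log2 ratio of H1 was -0.08. Without HIST1H2BK, the ratio of H2B was -0.61, and without HIST1H4I the ratio of H4 was -0.61. Without HIST1H2AC, the member with the most H2A counts, the ratio of H2A was -0.80. Without HIST1H3G, the ratio of H3 was -1.40.

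H1 linker histones bind the DNA between nucleosomes. HIST1H1C (chr6:26055787-26056428, GRCh38, minus strand), which encodes linker histone H1.2, made up most of the H1 signal, with 94.8% of the H1 counts in siMock and 87.4% in siFUBP1. It had 468, 491 and 400 counts in the siMock libraries and 163, 166 and 182 in the siFUBP1 libraries. The groups were far apart, with a log2 fold change of -1.49 (SE 0.112, adjusted p = 1.53e-11 from edgeR). HIST1H1E, which encodes H1.4, had 10, 13 and 12 counts against 22, 14 and 12, and its log2 fold change of 0.38 did not pass (SE 0.412, adjusted p = 0.45 from edgeR). The other 4 H1 genes were too low to test.

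H2A pairs with H2B in the nucleosome core. HIST1H2AC, the H2A gene with the highest level per length at 9.94 FPKM in siMock and 8.21 FPKM in siFUBP1, had 328, 260 and 233 counts against 258, 264 and 189. Its groups overlapped, and its log2 fold change of -0.29 did not pass (SE 0.142, adjusted p = 0.0869 from edgeR). It did pass with the replicate block (log2 fold change -0.29, adjusted p = 0.0393), with the gene length correction (-0.32, adjusted p = 0.0355) and without siMock replicate 3 (-0.37, adjusted p = 0.0454). HIST1H2AG had 107, 112 and 109 counts against 76, 61 and 64, with no overlap, and fell by 0.78 on the log2 scale (SE 0.179, adjusted p = 4.87e-04 from edgeR). HIST3H2A, in the small cluster on chromosome 1, had 49, 51 and 56 counts against 49, 31 and 19. As CPM these did not overlap, and the log2 fold change was -0.73 (SE 0.286, adjusted p = 0.0296 from edgeR). It did not pass with DESeq2 (adjusted p = 0.107), with library size alone (adjusted p = 0.0572), with limma on log2(FPKM + 0.1) (adjusted p = 0.0574), without siFUBP1 replicate 2 (adjusted p = 0.0743), without siFUBP1 replicate 3 (adjusted p = 0.183) and without siMock replicate 3 (adjusted p = 0.0911). HIST1H2AE had 26, 17 and 31 counts against 24, 17 and 16, a log2 fold change of -0.46 that did not pass (SE 0.355, adjusted p = 0.275 from edgeR).

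The H2B genes held the widest range of changes. HIST1H2BK (chr6:27146418-27146798, GRCh38, minus strand), the member with the most counts, had 565, 691 and 618 counts in siMock and 132, 110 and 139 in siFUBP1. The lowest siMock library held over 4 times the counts of the highest siFUBP1 library, and the log2 fold change was -2.38 (SE 0.118, adjusted p = 4.43e-15 from edgeR). Its model is 381 coding bases and shares 74.1% of its 50-base words with other genes, H2BFS most often, so its counts are uncertain to the extent that such reads were split. HIST2H2BE (chr1:149884459-149886652, GRCh38, minus strand), of which 8.11% of the words are shared, had 194, 219 and 173 counts against 70, 43 and 53. It fell by 1.89 on the log2 scale (SE 0.178, adjusted p = 9.34e-10 from edgeR). HIST1H2BH (chr6:26251651-26253710, GRCh38, plus strand) had 99, 103 and 118 counts against 45, 44 and 65, again with no overlap, and fell by 1.14 (SE 0.200, adjusted p = 2.33e-05 from edgeR).

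A pair of further H2B genes, outside the naming rule and named after their values were seen, were lower at the adjusted p with no overlap. HIST2H2BF had 76, 103 and 59 counts against 42, 41 and 42, and its log2 fold change lay at the fold threshold without passing it (SE 0.224, adjusted p = 4.03e-04 from edgeR). It was called lower with RLE factors, with the gene length correction, and without siFUBP1 replicate 1, siMock replicate 1 or siMock replicate 3. HIST2H2BF shares 26.87% of its 50-base words with other genes, HIST2H2BA most often. It also shares 5.54% of its exonic bases with FCGR1A on the opposite strand, so those reads are uncertain. HIST1H2BG had 34, 41 and 37 counts against 15, 22 and 32, a log2 fold change of -0.78 (SE 0.31, adjusted p = 0.0331 from edgeR). HIST1H2BG did not pass with DESeq2 (adjusted p = 0.118), library size alone (0.0607) or no filter (0.0508), nor in 4 of the 6 fits without 1 library (0.0674 to 0.162), and was called lower without siFUBP1 replicate 3 (log2 fold change -1.08).

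The other 5 tested H2B genes did not pass the test or were higher. HIST1H2BD had 99, 86 and 68 counts against 85, 95 and 97, and its log2 fold change was 0.05 (SE 0.181, adjusted p = 0.822 from edgeR). HIST1H2BJ had 50, 50 and 48 counts against 33, 46 and 57, a log2 fold change of -0.20 (SE 0.243, adjusted p = 0.489 from edgeR). In neither gene were the groups apart, nor in HIST1H2BC, with 39, 35 and 27 counts against 34, 11 and 37 (adjusted p = 0.363 from edgeR). The 2 members that were higher at the adjusted p were both H2B genes, HIST3H2BB and HIST1H2BN, named here after their values were seen. HIST3H2BB had 18, 30 and 22 counts against 36, 55 and 36, and its log2 fold change was 0.78 (SE 0.299, adjusted p = 0.0272 from edgeR). It did not pass with DESeq2 (adjusted p = 0.0978), without siFUBP1 replicate 2 (adjusted p = 0.175), without siMock replicate 1 (adjusted p = 0.106) or without siMock replicate 3 (adjusted p = 0.0558). HIST1H2BN had 58, 58 and 54 counts against 96, 91 and 63, and its log2 fold change of 0.48 lay at the threshold (SE 0.208, adjusted p = 0.0495 from edgeR). It did not pass with DESeq2 (adjusted p = 0.149), no filter (0.0646), the replicate block (0.0504) or limma on log2(FPKM + 0.1) (0.112) and log2(FPKM + 1) (0.089). Leaving out any single library other than siFUBP1 replicate 3 gave log2 fold changes from 0.36 to 0.49 that did not pass, with adjusted p from 0.0791 to 0.21. Its model shares 7.25% of its exonic bases with HIST1H2AK on the opposite strand and HIST1H2AL on the same strand, so those reads are uncertain.

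**Figure D3:**
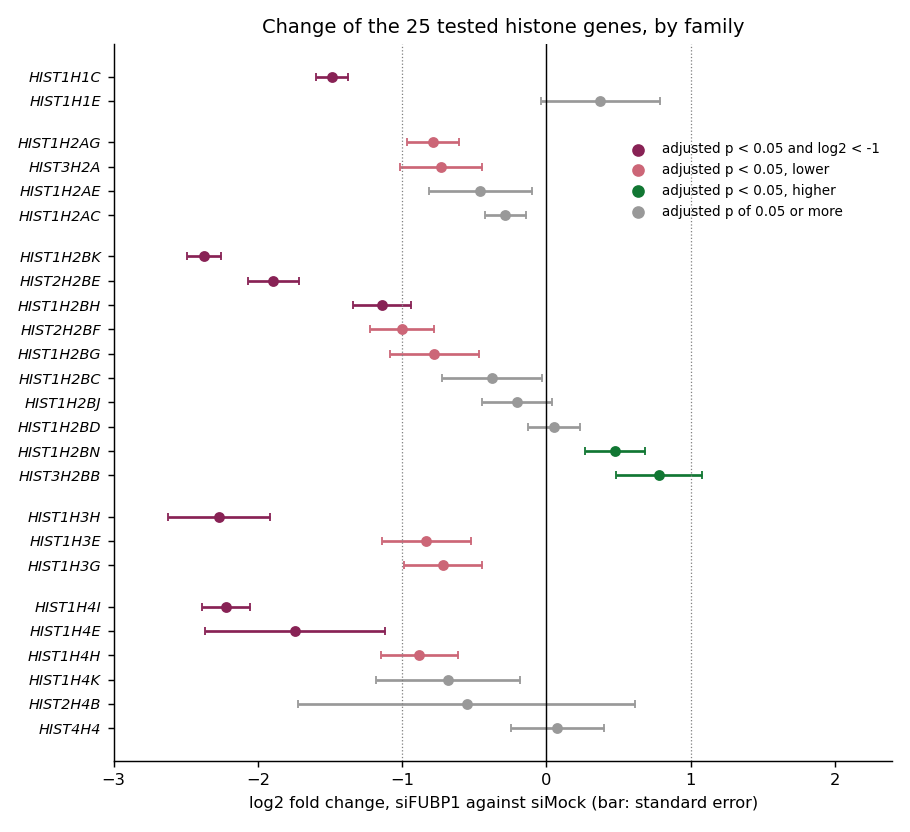
Log2 fold change of siFUBP1 over siMock with its standard error for each of the 25 tested histone genes, grouped by family from H1 at the top to H4 at the bottom; dotted lines mark 1 and -1. The 7 called genes lie between -1.14 and -2.38, and 5 genes lie above 0.

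H3 and H4 form the tetramer at the centre of the nucleosome. HIST1H3H (chr6:27810064-27811300, GRCh38, plus strand) had 51, 38 and 49 counts in siMock and 7, 15 and 8 in siFUBP1, and fell by 2.27 on the log2 scale (SE 0.354, adjusted p = 4.23e-06 from edgeR). HIST1H3G had 40, 40 and 58 counts against 28, 28 and 33, with a log2 fold change of -0.72 (SE 0.272, adjusted p = 0.0256 from edgeR). HIST1H3E had 34, 42 and 39 counts against 28, 25 and 15, with a log2 fold change of -0.83 (SE 0.307, adjusted p = 0.0215 from edgeR). All 3 tested H3 genes had groups that did not overlap. HIST1H3G did not pass with DESeq2 on all 6 libraries (adjusted p = 0.102), with library size alone (adjusted p = 0.0516), or without siFUBP1 replicate 1, siFUBP1 replicate 2 or siMock replicate 3, where the log2 fold changes were -0.68, -0.67 and -0.48 at adjusted p of 0.0725, 0.0694 and 0.184. HIST1H3E did not pass with DESeq2 (adjusted p = 0.087), or without siFUBP1 replicate 3, siMock replicate 2 or siMock replicate 3, where the log2 fold changes were -0.60, -0.79 and -0.79 at adjusted p of 0.109, 0.0594 and 0.0538.

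Among the H4 genes, HIST1H4I (chr6:27138588-27139881, GRCh38, plus strand) held 57.8% of the H4 counts in siMock and 30.8% in siFUBP1. It had 207, 211 and 206 counts against 54, 46 and 41 and fell by 2.22 on the log2 scale (SE 0.167, adjusted p = 1.49e-11 from edgeR). HIST1H4E (chr6:26204552-26206038, GRCh38, plus strand) was called lower from few counts, with 8, 20 and 14 against 1, 11 and 1. Its groups overlapped, and its log2 fold change was -1.74 (SE 0.624, adjusted p = 0.019 from edgeR). The call was lost with DESeq2 on all 6 libraries (adjusted p = 0.0883), and without siFUBP1 replicate 1, siFUBP1 replicate 3 or siMock replicate 2, at adjusted p of 0.112, 0.0945 and 0.103. With limma on log2(FPKM + 1) its log2 fold change was -0.43, inside the fold threshold, and the log2 fold change was -3.71 without siFUBP1 replicate 2. HIST1H4H had 59, 43 and 41 counts against 24, 28 and 30, with a log2 fold change of -0.88 (SE 0.269, adjusted p = 6.49e-03 from edgeR), and did not pass without siMock replicate 1 (adjusted p = 0.0505). HIST1H4K, with 11, 6 and 21 counts against 10, 6 and 9, did not pass (log2 fold change -0.68, SE 0.5, adjusted p = 0.246 from edgeR). HIST2H4B did not pass either, with 58, 2 and 34 counts against 32, 32 and 4 (log2 fold change -0.55, SE 1.17, adjusted p = 0.722 from edgeR). All of the 50-base words of HIST1H4K and 97.2% of those of HIST2H4B occur in another gene, HIST1H4J and HIST2H4A most often, so the counts of both are uncertain.

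The 250 bases before the RefSeq transcription start are shown for called genes of 4 families and for the gene with the highest positive change. They were taken from the RefSeq promoter table on GRCh38.p14, which matched 66 of the 71 members, and are written 5′ to 3′ on the gene's own strand. The stretch of HIST1H4E runs past the GENCODE start of this gene at chr6:26204552. Capitals mark matches to 4 motifs on either strand, and overlapping matches form 1 run of capitals. These were TATAAA, at which the basal transcription machinery binds, and the common promoter element CCAAT. The others were ATTTGCAT, the octamer known from H2B promoters, and GGTCCG, letters of a known H4 promoter element.
HIST1H2BK, chr6:27146856-27147105, minus strand: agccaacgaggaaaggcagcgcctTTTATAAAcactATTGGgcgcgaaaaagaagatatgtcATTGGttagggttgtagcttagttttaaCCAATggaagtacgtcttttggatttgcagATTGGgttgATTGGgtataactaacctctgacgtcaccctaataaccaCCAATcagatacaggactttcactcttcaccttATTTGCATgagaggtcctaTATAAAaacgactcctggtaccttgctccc
HIST2H2BE, chr1:149886683-149886932, minus strand: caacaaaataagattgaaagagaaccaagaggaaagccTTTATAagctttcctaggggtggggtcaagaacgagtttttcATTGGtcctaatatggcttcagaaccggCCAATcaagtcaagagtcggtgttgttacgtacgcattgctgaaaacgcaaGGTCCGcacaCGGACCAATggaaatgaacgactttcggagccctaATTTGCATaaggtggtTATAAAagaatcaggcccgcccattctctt
HIST1H1C, chr6:26056471-26056720, minus strand: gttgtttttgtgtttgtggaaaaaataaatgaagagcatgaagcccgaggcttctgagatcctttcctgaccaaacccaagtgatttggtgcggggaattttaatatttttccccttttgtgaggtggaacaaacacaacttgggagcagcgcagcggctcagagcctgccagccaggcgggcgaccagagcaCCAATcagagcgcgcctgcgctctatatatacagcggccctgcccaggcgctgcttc
HIST1H3H, chr6:27809801-27810050, plus strand: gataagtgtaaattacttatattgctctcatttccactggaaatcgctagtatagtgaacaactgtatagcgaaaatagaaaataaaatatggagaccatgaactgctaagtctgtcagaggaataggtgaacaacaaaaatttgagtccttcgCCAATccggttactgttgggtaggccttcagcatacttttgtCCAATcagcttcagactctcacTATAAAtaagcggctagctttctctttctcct
HIST1H4E, chr6:26204360-26204609, plus strand: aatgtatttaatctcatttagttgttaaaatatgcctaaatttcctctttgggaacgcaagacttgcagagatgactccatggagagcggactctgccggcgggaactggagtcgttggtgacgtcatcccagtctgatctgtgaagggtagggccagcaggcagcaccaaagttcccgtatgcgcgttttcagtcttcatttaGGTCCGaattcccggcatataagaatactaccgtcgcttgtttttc
HIST3H2BB, chr1:228457853-228458102, plus strand: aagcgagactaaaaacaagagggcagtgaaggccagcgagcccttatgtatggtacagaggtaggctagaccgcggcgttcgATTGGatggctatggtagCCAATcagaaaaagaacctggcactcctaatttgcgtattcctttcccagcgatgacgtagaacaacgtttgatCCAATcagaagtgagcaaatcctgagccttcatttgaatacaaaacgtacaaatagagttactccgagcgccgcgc
In the full window of 250 bases before and 50 bases after the start, TATAAA was found in 68.2% of the 66 members and in 11.5% of 35116 promoters of the same length. CCAAT was found in all 6 H1, 16 H2A, 18 H2B and 13 H3 promoters but in 3 of 13 H4 promoters, against 34.6% of all promoters. ATTTGCAT was found in 11 of 16 H2A and 14 of 18 H2B promoters and in none of the H1, H3 and H4 promoters, against 1.77% of all promoters. GGTCCG was found in 12 of 13 H4 promoters, against 11.3% of all promoters. A match is a run of letters and was not tested as a binding site.

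Tested members were called lower both with and without each motif. Of all tested genes, 9.13% were called lower. Of 10 tested members with ATTTGCAT, 3 were called lower, and of 15 without it, 4 were. The median log2 fold change was -0.78 with it and -0.72 without it. For TATAAA, 3 of 14 members with it and 4 of 11 without it were called lower, at medians of -0.57 and -0.88. For GGTCCG the counts were 3 of 7 and 4 of 18, at medians of -0.88 and -0.72. HIST3H2BB and HIST1H2BN, both higher, held neither TATAAA nor ATTTGCAT, and neither did HIST3H2A or HIST1H1C, both lower. These counts are descriptions with no test.

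Many H2A and H2B genes lie head to head and share the DNA between their starts. In 11 such pairs the promoter windows overlapped, with 193 to 247 bases between both starts, and in 4 pairs both genes were tested. These pairs, found after the windows were read, were compared by the log2 ratio of H2B to H2A counts within each library. For HIST3H2BB over HIST3H2A the ratio was -1.45, -0.77 and -1.35 in the siMock libraries and -0.45, 0.83 and 0.92 in the siFUBP1 libraries. The groups did not overlap, and the ratio was higher by 1.62 in siFUBP1 (exact permutation p = 0.1, two-sided, the smallest that 3 against 3 libraries can give, and 0.4 after adjustment over the 4 pairs). For HIST1H2BJ over HIST1H2AG the ratio went from -1.15 ± 0.045 to -0.59 ± 0.543 (SD, n = 3 each; exact permutation p = 0.4, adjusted 0.667). For HIST1H2BG over HIST1H2AE it went from 0.64 ± 0.552 to 0.23 ± 0.848 (SD, n = 3 each; exact permutation p = 0.5, adjusted 0.667), and for HIST1H2BC over HIST1H2AC from a mean of -3.02 to a mean of -3.29, with -4.58 in siFUBP1 replicate 2 (n = 3 each; exact permutation p = 0.9). In these last 3 pairs the groups overlapped. With 3 libraries a group, no pair could have reached 0.05.

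**Figure D4:**
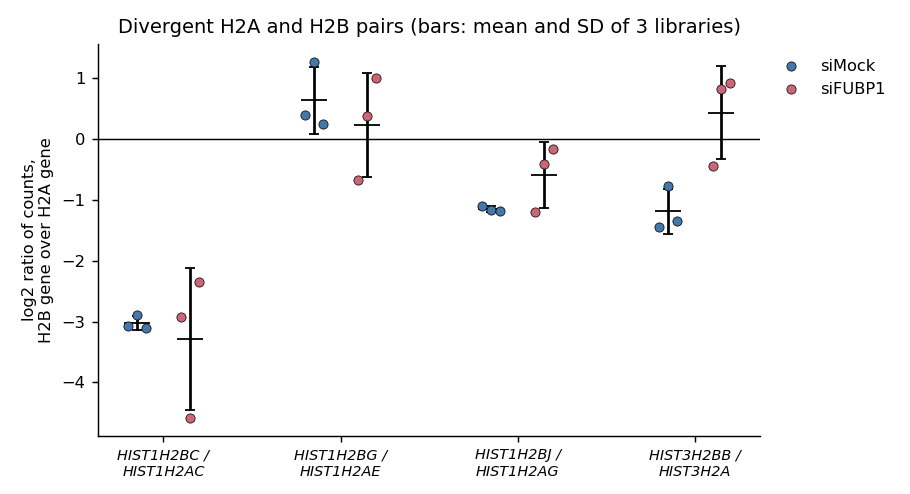
Log2 ratio of the counts of the H2B gene over its divergently transcribed H2A gene in each library, for the 4 pairs with both genes tested; bars are mean and SD of 3 libraries. The siMock and siFUBP1 libraries are apart for HIST3H2BB over HIST3H2A and overlap in the other pairs.

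The annotated models differ in how far they run past the stem-loop, and the changes were set against this. For each gene 1 transcript was used, the longest that holds the stem-loop, with protein-coding transcripts taken first. By this transcript, 15 tested members ran over 300 bases past the stem-loop, 5 ended within 300 bases of it, and 5 had no stem-loop. HIST1H2BD, HIST1H2BC and HIST4H4 were placed in the second group by transcripts of 496, 571 and 577 bases. Their longest annotated transcripts have 789, 659 and 1918 bases, so the groups do not separate short gene models from long ones. In the first group 4 members were called lower, 11 were lower and 2 higher at the adjusted p, and the median log2 fold change was -0.78. In the second, 1 was called lower, and the median was -0.38. In the third, 2 were called lower, HIST1H2BK and HIST1H1C, and the median was -0.68. Of all tested genes, 9.13% were called lower, and 30.1% were lower and 30.1% higher at the adjusted p. Which transcript end the counted reads came from cannot be read from counts per gene. By place, 19 tested members lay in the clusters of chromosome 6, of which 6 were called lower, 5 lay on chromosome 1, of which 1 was called lower, and the last, HIST4H4 on chromosome 12, had a log2 fold change of 0.08.

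Replacement variants are histone genes of which most are transcribed outside S phase as well and make polyadenylated messages. Of 11 tested, 8 were lower and 2 higher at the adjusted p, where 30.1% of all tested genes were lower and 30.1% higher. With the fold threshold none was called, against 9.13% of all tested genes lower and 8.16% higher. Their median log2 fold change was -0.33, above the -0.73 of the replication-dependent genes, a comparison given with no test. H2AFX, the variant phosphorylated at DNA breaks, went from 83.0 CPM to 49.1 CPM (log2 fold change -0.76, adjusted p = 4.32e-08 from edgeR), and H2AFV, a close relative of H2AFZ, went from 240.8 CPM to 153.7 CPM (-0.65, adjusted p = 6.31e-08). H2AFZ, H3F3A and H3F3B, which encode H2A.Z and H3.3, had log2 fold changes of -0.33, -0.45 and -0.21 (adjusted p = 8.12e-04, 3.96e-05 and 0.018 from edgeR). The linker variants moved in opposite directions, H1FX at -0.66 (adjusted p = 0.0148) and H1F0 at 0.25 (adjusted p = 0.0298), and the siMock and siFUBP1 libraries of H1F0 overlapped. CENPA, the H3 variant of centromeres, was higher at 0.52 (adjusted p = 1.45e-04).

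Of the genes that make, process and degrade histone messages, 10 of 29 tested were higher and 8 lower at the adjusted p, where the background over every tested gene was 30.1% in each direction. Their median change was 0.02 on the log2 scale, and 1 was called. That gene was ZNF473, a zinc finger protein of the U7 processing machinery, which rose from 186, 178 and 168 counts to 376, 377 and 422 (log2 fold change 1.06, SE 0.114, adjusted p = 9.99e-09 from edgeR). SLBP, which binds the stem-loops printed above, had 913, 915 and 936 counts against 891, 880 and 919, and did not pass (log2 fold change -0.12, adjusted p = 0.22). The U7 components LSM10 and LSM11 were at -0.17 (adjusted p = 0.158) and 0.25 (adjusted p = 0.014). The transcription regulators NPAT, CASP8AP2 and HINFP were at -0.17, 0.02 and 0.11, with adjusted p of 0.206, 0.865 and 0.403. CPSF3, the nuclease that cuts the message, was higher at 0.81 (adjusted p = 1.30e-08), and UPF1, which takes part in histone message decay, was lower at -0.87 (adjusted p = 2.64e-10).

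Of 44 tested genes for S phase and DNA replication, SLBP again among them, 25 were lower and 5 higher at the adjusted p, against 30.1% of all tested genes in each direction. With the fold threshold 3 were called lower and none higher, against 9.13% and 8.16% of all tested genes, and the median log2 fold change was -0.33. The 3 called were CCNE1 at -1.70, CCNE2 at -1.62 and CDC6 at -1.02 (adjusted p = 3.03e-13, 4.35e-10 and 3.13e-11 from edgeR). CCNE1 and CCNE2 encode the cyclin partners of CDK2 at entry into S phase, and CDC6 loads the replicative helicase. POLE, the catalytic subunit of a replicative DNA polymerase, was at -0.98 (adjusted p = 1.14e-10). Whether the lower S-phase genes and the lower histone counts share a source was not tested.

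Of the histone chaperones and acetylation factors, 7 of 20 tested were higher and 7 lower at the adjusted p, near the 30.1% in each direction of all tested genes, with a median log2 fold change of 0.01. ASF1A, an H3 and H4 chaperone, was the 1 called gene, at 1.08 (adjusted p = 5.83e-10 from edgeR). TONSL, which binds new H4 at replication forks, was at -0.81 (adjusted p = 2.16e-08), and RBBP7, which also binds H4, was at -0.64 (adjusted p = 6.10e-08).

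Other RNAs that normally lack a poly(A) tail were read as a measure of what the bead selection carried over. Of 26 rows in the table, 10 were at 0 and 4 could be tested, and none of the 4 passed the test. Their summed level was 434.5, 381.7 and 238.6 CPM in the siMock libraries and 202.4, 280.9 and 226.8 CPM in the siFUBP1 libraries, with most of it from RN7SL2, the RNA of the signal recognition particle. RN7SL2 had 6985, 6347 and 3614 counts against 3283, 4740 and 3845 and did not pass (log2 fold change -0.59, adjusted p = 0.151 from edgeR). The groups overlapped in this sum, with siFUBP1 replicate 2 above siMock replicate 3. The part of carried-over RNA in the histone counts was not tested.

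**Figure D5:**
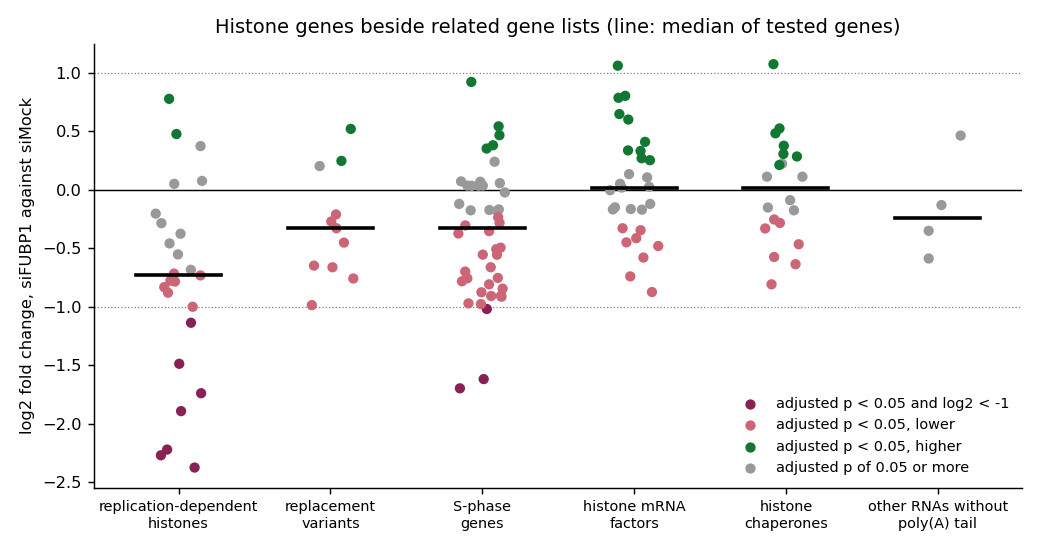
Log2 fold change of siFUBP1 over siMock for the tested genes of the replication-dependent histones and of 5 related lists, with a line at each median and colours for the test result. The histone median is at -0.73, the replacement variants and S-phase genes are at -0.33 each, and the 2 lists of histone mRNA factors and chaperones lie near 0.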

How the data were processed

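Poly-T selected RNA was sequenced from 3 siMock and 3 siFUBP1 libraries of MG63 cells with a kit that does not mark strand. The deposited table holds whole-number counts per gene, and the authors' processing notes name HISAT2 2.0.5, StringTie 1.3.3b, featureCounts 1.5.0-p3 and DESeq2 1.16.1, while use of strand and handling of reads with several matches were not given in the sources used here. The authors also deposited FPKM values, used here for levels between genes and in an alternative fit. The authors' columns of mean normalised signal, log2 fold change and p-value of their own comparison were not used. Coordinates of all 71 members match GENCODE 29 on GRCh38.

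Counts were fitted with edgeR 4.0.16 in R 4.3.3 (TMM factors from 0.959 to 1.05, filterByExpr, quasi-likelihood fits with robust = TRUE), p-values were adjusted over all 16116 tested genes by the Benjamini-Hochberg method, and thresholds were 0.05 and a log2 fold change of 1. SE was taken from the F statistic. Summed CPM and medians are descriptions. Libraries differed by more than sampling noise, and each counted as 1 sample. That difference does not show that they came from separate cultures. Alternatives were RLE factors, library size alone, no filter, a mean of at least 50 counts, DESeq2 1.42.0, limma 3.58.1 on log2(FPKM + 1) and log2(FPKM + 0.1), a gene length correction, a replicate block and each library left out. The script was tested on simulated data. Named members were the 4 tested genes of each family with the highest mean FPKM and every called gene, and from each list those fixed by name and the 3 with the smallest adjusted p. The members and lists were chosen with earlier results of these data known.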

Additional observations from a re-analysis of the deposited data

How the results depend on the processing

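No direction among the 19 named histone genes turned in any of 274 refits at a passing p: 251 kept their side of the adjusted p threshold, 20 lost it and 3 gained it. HIST1H1C, HIST1H2BK, HIST2H2BE and HIST1H4I were called in every fit. HIST1H3H was called in every fit that tested it, and was not tested with a mean of at least 50 counts. HIST1H2BH lost its call only with limma on log2(FPKM + 1), where its log2 fold change was -0.77, inside the fold threshold. Leaving out 1 library gave 8 to 11 lower calls against 7, with 11 without siFUBP1 replicate 1, when 31 members passed the filter. The 2 members higher at the adjusted p became 0 with DESeq2, 1 with limma on log2(FPKM + 0.1), 1 with limma on log2(FPKM + 1), 1 with a mean of at least 50 counts, 1 with no expression filter, 1 with the replicate block, 1 among the 20 members unlike other genes (an alternative chosen after seeing the data) and 0 to 2 with 1 library left out. With a mean of at least 50 counts, 7 of 10 members tested were lower at the adjusted p, against 14 of 25, since fewer genes were tested. With no filter, 10 were called lower, HIST1H2AI, HIST2H3D and HIST1H3C among them. HIST1H2AI and HIST2H3D share 62.3% and 80.4% of their 50-base words with another gene, so their counts are uncertain. The summed log2 ratio of all histone genes was -0.99 with library size alone, which moves the median of all genes from 0.00 to 0.10, and -0.86 without HIST1H2BK. The ratio of H2B was -1.10 with library size alone and -0.61 without its top member, and those of H1, H2A, H3 and H4 without theirs were -0.079, -0.80, -1.40 and -0.61.

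Deviations from the group means of same-numbered libraries correlated at 0.028, 0.048 and 0.238. Those of differently numbered libraries correlated at -0.19 to 0.146. Deviations within a group of 3 libraries are not independent, so these values cannot settle whether replicate numbers pair the libraries. With the replicate block, 7 members were called lower, 15 were lower and 1 was higher at the adjusted p.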
